A study of Mus musculus with 34 samples.

Results

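Cib3, BC005561, Mmp15, Osbpl3 and Pls1 are 5 of the 24951 genes counted in hepatocytes and of the 26233 counted in liver macrophages of mice whose biliary epithelial cells could lose the transcriptional coactivators YAP and TAZ. They were taken by gene symbol. They were chosen by their hepatocyte counts, which were called higher in knockout than in control livers both with and without the liver toxin carbon tetrachloride (CCl4), so the hepatocyte knockout values are given here as a description without a test. Knockout mice carried Opn-iCreERT2 with Yap fl/fl and Taz fl/fl alleles, and control mice were siblings with the same floxed alleles that lacked the recombinase. Opn is the osteopontin promoter, which is active in biliary epithelium, so neither sequenced cell type was the cell type aimed at. All mice were of a mixed B6;129P background and received tamoxifen at 1.6 mg/kg on 5 days at 7 to 8 weeks of age, with 3 weeks of washout. CCl4 was given at 1 ml/kg, and cells were taken 48 h later. Hepatocyte libraries came from 4 knockout and 3 control mice after CCl4 and from 5 knockout and 6 control mice without it. Macrophage libraries came from 4 mice in each of the same 4 groups, and 15 mice gave both cell types.

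YAP and TAZ do not bind DNA themselves and act through partners such as the TEAD factors. Bile ducts drain the bile that hepatocytes secrete, and hepatocytes sense bile acids through nuclear receptors such as FXR. CCl4 is turned into a toxic radical inside hepatocytes, kills them and sets off division of the survivors. The 5 genes have unlike products. Cib3 encodes a calcium-binding protein of the calcium and integrin-binding (CIB) family that takes part, with Cib2, in mechanotransduction of mouse inner-ear hair cells. BC005561 encodes a relative of THOC2, the large scaffold subunit of the THO complex, which couples transcription to messenger RNA export. Mmp15 encodes a membrane-anchored matrix metalloproteinase. Osbpl3 encodes an oxysterol-binding-protein-related protein that works where the endoplasmic reticulum touches the plasma membrane and binds the GTPase R-Ras. Pls1 encodes plastin 1, which bundles actin in the microvilli of absorptive epithelia.

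Cib3 lies on chromosome 8 (GRCm38, 72204335 to 72212837, minus strand) and Mmp15 on the same chromosome at 95352268 to 95375080 (plus strand). Osbpl3 lies on chromosome 6 (50293330 to 50456201, minus strand), Pls1 on chromosome 9 (95752642 to 95845311, minus strand) and BC005561 on chromosome 5 (104508352 to 104522611, plus strand). All 5 are annotated as protein coding in GENCODE. No other GENCODE gene overlaps any of them. Of the 50-base words in the last 600 bases of their transcripts, none recurred in a transcript of another gene for 4 of them, and 7 of 928 did for Mmp15. The table of start-site windows held 4 of the genes, and those windows are printed because the genes were higher in the same livers. Each window, from RefSeq (GRCm38.p6), runs from 250 bases before to 50 bases after the start that the table uses, and is written 5′ to 3′ along the gene, at chr8:72212788-72213087 (minus) for Cib3, chr8:95352046-95352345 (plus) for Mmp15, chr6:50456121-50456420 (minus) for Osbpl3 and chr9:95845230-95845529 (minus) for Pls1. Capitals mark the single motif match found.
Cib3: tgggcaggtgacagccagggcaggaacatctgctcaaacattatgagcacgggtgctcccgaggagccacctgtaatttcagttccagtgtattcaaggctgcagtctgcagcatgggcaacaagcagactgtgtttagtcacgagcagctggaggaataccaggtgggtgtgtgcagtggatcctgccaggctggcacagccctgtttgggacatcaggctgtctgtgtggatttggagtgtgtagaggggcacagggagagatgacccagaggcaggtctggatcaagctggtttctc
Mmp15: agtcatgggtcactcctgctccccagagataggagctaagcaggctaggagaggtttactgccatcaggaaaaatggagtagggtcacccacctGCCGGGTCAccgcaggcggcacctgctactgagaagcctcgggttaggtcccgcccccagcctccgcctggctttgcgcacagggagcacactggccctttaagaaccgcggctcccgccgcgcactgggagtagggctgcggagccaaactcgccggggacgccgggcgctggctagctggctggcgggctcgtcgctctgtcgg
Osbpl3: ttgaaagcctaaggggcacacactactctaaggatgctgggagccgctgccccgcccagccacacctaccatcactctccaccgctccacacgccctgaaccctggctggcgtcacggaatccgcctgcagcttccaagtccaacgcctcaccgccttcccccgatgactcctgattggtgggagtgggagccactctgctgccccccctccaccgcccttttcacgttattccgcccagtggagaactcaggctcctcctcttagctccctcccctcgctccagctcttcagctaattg
Pls1: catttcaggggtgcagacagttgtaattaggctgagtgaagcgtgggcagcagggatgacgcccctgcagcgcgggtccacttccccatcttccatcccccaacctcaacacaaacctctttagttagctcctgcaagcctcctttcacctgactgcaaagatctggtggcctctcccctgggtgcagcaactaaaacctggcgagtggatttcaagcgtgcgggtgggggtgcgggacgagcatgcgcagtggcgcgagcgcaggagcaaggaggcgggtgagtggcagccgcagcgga

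The windows were searched on both strands for 4 motifs. The TEAD motif GGAATG was in 14.7% of the 32851 windows of the table, the AP-1 motif TGANTCA in 7.81%, the antioxidant response motif TGACNNNGC in 12.4% and the perfect inverted repeat bound by FXR in 0.00913%. None of the 4 was in the windows of Cib3, Osbpl3 and Pls1. The Mmp15 window held 1 antioxidant response match, GCCGGGTCA on the minus strand at bases 95 to 103. These letters are a description of the windows only, and a TGANTCA or TGACNNNGC match can share its first bases with the other motif. For Cib3 the start used is base 72212837, so the window lies, but for its outermost base, inside the RefSeq gene, which reaches base 72213086.

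Each library held between 596380 and 7535053 counts, so 3 counts correspond to between 0.398 and 5.03 CPM, that is, counts scaled to a library total of 1000000. Levels below are CPM, and fold changes come from edgeR's quasi-likelihood fit with TMM scaling, whose factors ran from 0.771 to 1.32. Yap1 and Wwtr1, the targeted genes, were between 38.0 and 51.2 and between 21.6 and 43.0 CPM in hepatocytes of knockout mice without CCl4, against 30.3 to 42.2 and 10.4 to 19.6 CPM in controls. Reads from transcript ends in cells that were not the population aimed at do not check the deletion. Descriptions in the labels called the hepatocyte library of CCl4 control mouse 15 and the macrophage library of CCl4 control mouse 11 knockouts, while their genotype fields called them controls; the genotype was followed. A first series of file numbers held 5 hepatocyte and 2 macrophage libraries, all of control mice, and these were the most deeply sequenced. Marker lists for other cells moved with genotype in hepatocyte libraries without CCl4, where genes called higher made up 4.64% of the 9679 tested. There 8 of 12 Kupffer cell markers, 5 of 8 mitosis genes, 2 of 7 biliary markers, 1 of 9 stellate, 1 of 9 endothelial and 1 of 10 hepatocyte markers were called higher in knockout mice, 1 hepatocyte marker was called lower, and no lymphocyte marker passed the filter. Summed Kupffer markers ran from 149 to 1618 CPM in knockout and from 12.8 to 338 CPM in control mice, and summed biliary markers from 96.8 to 332 CPM in knockout and from 44.2 to 116 CPM in control mice, with no marker of either list at 0 in a whole group. After CCl4, 2 of 7 biliary markers were called higher (summed 235 to 391 CPM in knockout and 103 to 279 CPM in control mice), and no gene of the other lists was called either way. In macrophages no marker was called by genotype. The part of these cells in the levels of the 5 genes was not tested, and in bulk libraries more cells of a type and more RNA per cell cannot be told apart.

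Cib3 was close to absent from control hepatocytes and abundant in knockout hepatocytes, and CCl4 lowered it in knockout mice. Without CCl4 it stood at 221, 160, 120, 102 and 128 CPM in knockout mice 4, 5, 10, 20 and 21. In the 6 controls it ranged from 0 through a median of 0.491 to 4.04 CPM, on 18 counts in all. The lowest knockout value was 25.3 times the highest control value. By pooled counts the ratio was 194 (95% interval 122 to 328, counting error only), and the fitted log2 fold change was 7.14 (SE 0.465). After CCl4 Cib3 had 23.0, 28.5, 33.3 and 22.9 CPM in knockout mice 13, 14, 17 and 18, against 0 counts in each of control mice 12, 15 and 16. Against a floor of 3 counts over the control group, it was at least 112.5-fold higher in knockout hepatocytes. The library of mouse 15, with the conflicting label, thus also had none.

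BC005561 was expressed in every hepatocyte library and was higher in knockout mice by a like factor under both treatments. Without CCl4 it had 116, 118, 145, 103 and 96.6 CPM in knockout mice 4, 5, 10, 20 and 21, against 26.8 to 57.5 CPM with a median of 32.3 CPM in 6 controls. With CCl4, knockout mice 13, 14, 17 and 18 had 158, 113, 111 and 152 CPM, against 52.3, 44.0 and 40.2 CPM in control mice 12, 15 and 16. The groups did not overlap in either setting. The log2 fold change was 1.47 (SE 0.176) without CCl4 and 1.42 (SE 0.223) after it. Among the 5 genes it varied least between mice of a knockout group without CCl4, with a coefficient of variation of 16.2% against 31.9% for Cib3.

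Mmp15 had the smallest knockout difference of the 5 without CCl4. It stood at 16.3, 33.6, 14.5, 22.4 and 24.5 CPM in knockout mice 4, 5, 10, 20 and 21, against 3.84 to 12.8 CPM with a median of 8.77 CPM in controls. Knockout mice 13, 14, 17 and 18 had 23.0, 34.7, 35.4 and 28.5 CPM after CCl4, against 5.91, 7.08 and 10.8 CPM in control mice 12, 15 and 16. The log2 fold change was 1.08 (SE 0.258) without CCl4 and 1.85 (SE 0.322) after it. Without CCl4 the gap was narrow, the lowest knockout library being 1.14 times the highest control library.

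Osbpl3 and Pls1 were low in control hepatocytes, where Osbpl3 ran from 0 to 4.32 CPM and Pls1 from 0.959 to 6.31 CPM over both treatments. Osbpl3 had 5.45, 13.6, 23.5, 14.2 and 11.1 CPM in knockout mice 4, 5, 10, 20 and 21 without CCl4, against 0 to 4.04 CPM with a median of 0.902 CPM in controls. Its level after CCl4 was 19, 26.7, 16.1 and 20.7 CPM in knockout mice 13, 14, 17 and 18, against 1.02, 4.32 and 1.66 CPM in control mice 12, 15 and 16. Its log2 fold change was 3.45 (SE 0.513) without and 2.89 (SE 0.529) with CCl4. Knockout and control libraries were apart in both settings, by the least margin in mouse 4 without CCl4.

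Pls1 had 21.2, 32.9, 14.5, 48.5 and 14.3 CPM in knockout mice 4, 5, 10, 20 and 21 without CCl4, against 0.959 to 5.04 CPM with a median of 1.82 CPM in controls. After CCl4 it had 32.5, 27.6, 34.4 and 32.4 CPM in knockout mice 13, 14, 17 and 18, against 6.31, 4.49 and 4.56 CPM in control mice 12, 15 and 16. Its log2 fold change was 3.40 (SE 0.366) without and 2.47 (SE 0.400) with CCl4. The knockout libraries after CCl4 were close together, with a coefficient of variation of 9.13%, against 55.3% in knockout libraries without CCl4, where mouse 20 was highest. Mouse 20 also had the highest summed mitosis genes (233 CPM) and summed biliary markers (332 CPM) of that group. Summed Kupffer, stellate and endothelial markers were highest in mouse 4.

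**Figure D1:**
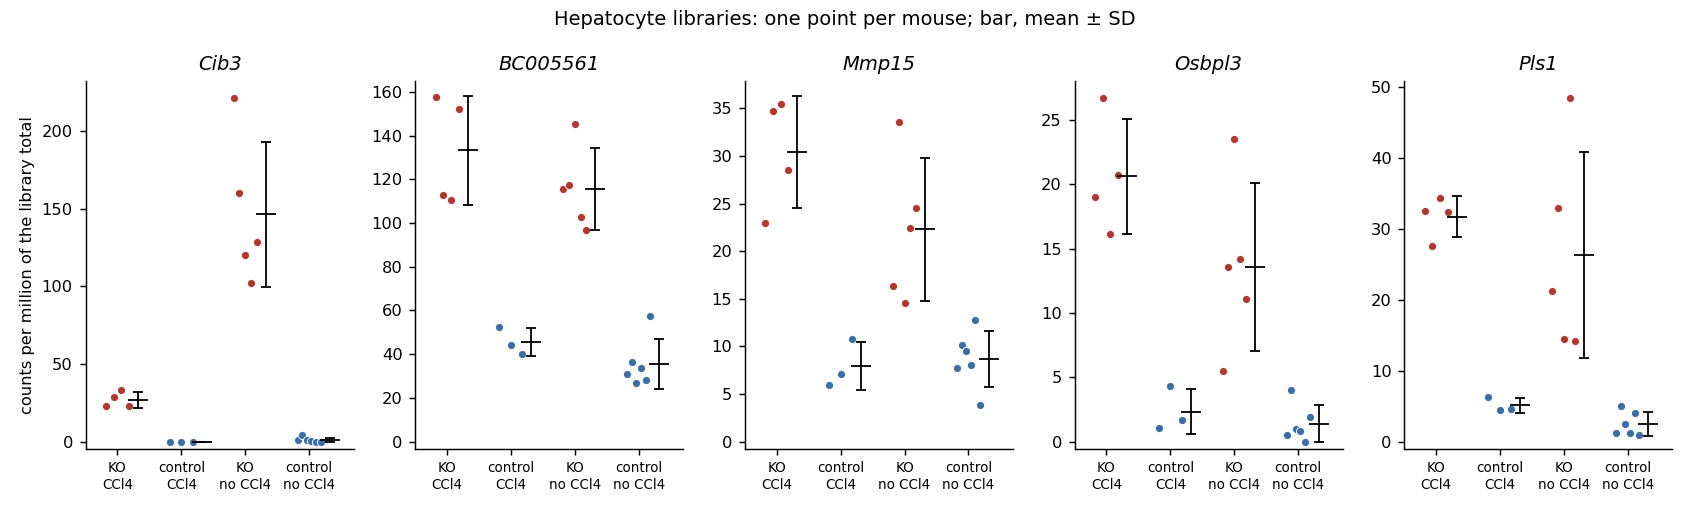
Levels of the 5 genes in hepatocytes, in CPM on linear axes, with 1 point per mouse and the group mean ± SD (cut at 0) beside the points, for knockout (KO) and control mice after and without CCl4. The knockout and control points do not overlap in any panel and treatment, and Cib3 in knockout mice lies at 22.9 to 33.3 CPM after CCl4 against 102 to 221 CPM without it.

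The choice of the 5 set the count, so it is no finding that all 5 were called higher in both comparisons. Of the 9679 genes tested, 0.0827% (8 genes) were called higher in both, 4.64% without CCl4 and 0.124% after it. Genes called lower made up 3.23% without CCl4 and 0.0517% after it, and none of the 5 was among them. Ordered by the larger of the 2 adjusted p-values, the 5 genes are the first of the 8, and the last of them, Mmp15, had 0.0161. The next were Krt8 (0.0374), Tspan8 (0.0374) and Ocln (0.0383), which encode a keratin, a tetraspanin of biliary and other epithelia, and the tight junction protein occludin. The first gene outside was Gcnt2 (0.0504). Knockout and control libraries were apart, with knockout higher, for 4.39% of genes without CCl4 and 8.07% after CCl4. All 5 genes passed the filter on low counts, and Cib3, Osbpl3 and Pls1 did so through their knockout libraries alone. Calls after CCl4 depended on few control mice. Without mouse 15, 2 of the 5 passed, without mouse 12, 3 did, and with the single control library of the second file series none did.

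CCl4 itself lowered Cib3 and was not seen to move the other 4 genes in knockout hepatocytes. Those comparisons did not choose the genes, but they use the same libraries. Cib3 averaged 26.9 ± 4.99 CPM in knockout mice after CCl4 and 146 ± 46.8 CPM in knockout mice without it (SD, n = 4 and 5). Every library after CCl4 was below every library without it, which held for 3.19% of genes. The log2 fold change of CCl4 over none was -2.72 (SE 0.387, adjusted p = 9.47e-05, edgeR), a fall to 0.152 of the level without CCl4, in a comparison that called 6.84% of genes lower and 7.02% higher. This call held in all 21 alternatives, with log2 fold changes from -3.15 to -2.55. In control mice Cib3 had 0 counts after CCl4 against 18 counts without it, at least 3.42-fold lower by pooled counts against a floor of 3 (adjusted p = 0.016, where 13.7% of genes were called lower and as many higher). Cib3 passed the filter on low counts through its knockout libraries alone, so its control libraries did not admit it to this test. The change in controls is therefore a description. The call in controls was lost without mouse 2 (adjusted p = 0.0523), mouse 12 (0.0522) or mouse 15 (0.0656).

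BC005561 averaged 133 ± 25.0 CPM in knockout mice after CCl4 and 116 ± 18.7 CPM without it, and the 95% interval of the log2 fold change, taken from its SE, was -0.44 to 0.31 around -0.07. In knockout mice the intervals ran from -0.36 to 0.71 for Mmp15, from -0.49 to 1.17 for Osbpl3 and from -0.62 to 0.65 for Pls1, with adjusted p-values of 0.655 to 0.988 for these 4 genes. In control mice Pls1 averaged 5.12 ± 1.03 CPM after CCl4 and 2.47 ± 1.71 CPM without it (log2 fold change 0.94, SE 0.429, adjusted p = 0.11). Mmp15 averaged 7.92 ± 2.54 CPM in control mice after CCl4 and 8.66 ± 2.98 CPM without it (log2 fold change -0.60, SE 0.303, adjusted p = 0.152). None of the 4 was therefore called in either genotype. Osbpl3 and Pls1 also passed the filter on low counts through their knockout libraries alone, so their changes in control mice are a description. The intervals for these 2 genes in control mice still allow rises of more than 1.5 on the log2 scale.

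The genotype by CCl4 interaction is the difference between the 2 knockout effects that chose the genes. Because genes had to be higher in both, the choice selects against a difference, so its values are a description, and nothing is read from the absence of the 5 among the 0.217% of genes called. For Cib3 the interaction was 1.72 on the log2 scale (SE 1.15), with 18 control counts without CCl4 and 0 after it. It was 0.77 (SE 0.407) for Mmp15 and -0.93 (SE 0.537) for Pls1. The interval for BC005561 ran from -0.60 to 0.49.

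**Figure D2:**
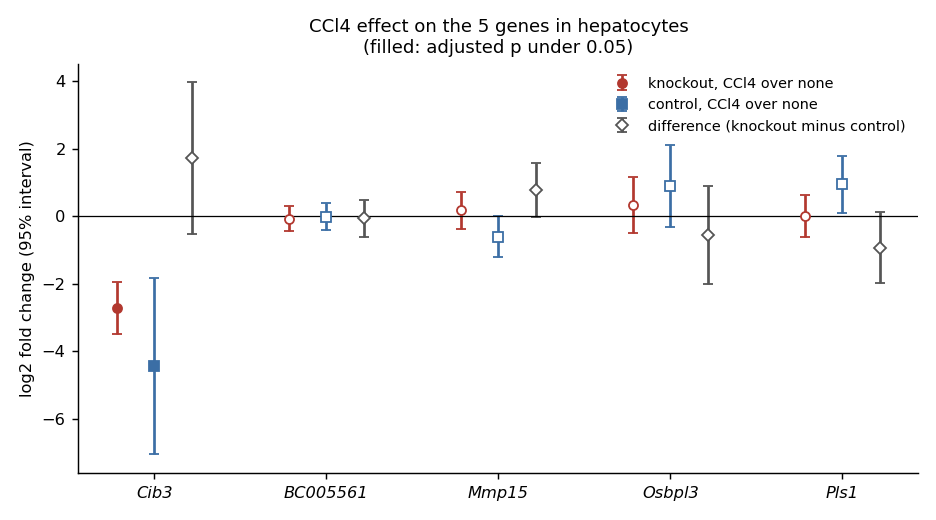
Log2 fold change of CCl4 over no CCl4 in knockout and in control hepatocytes, and their difference, with 95% intervals from the SE for each of the 5 genes; filled symbols had an adjusted p under 0.05. Only the 2 Cib3 effects are filled, at -2.72 in knockout mice and -4.44 in control mice. The second rests on 18 counts of a gene that passed the filter through its knockout libraries alone.

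Relatives and partners of the 5 genes, and bile acid response genes, were followed through 7 lists with 58 other tested genes. Without CCl4, 6 of the 58 (10.3%) were called higher in knockout hepatocytes and none lower, against 4.64% and 3.23% of all genes. The bile acid response list, which holds no relative or partner of the 5, gave 13 of the 58 and 1 of the 6. The count of 6 fell to 2 without knockout mouse 4 and to 3 without knockout mouse 20, control mouse 2 or control mouse 8, and it reached 9 without knockout mouse 10. It was 0 with the file series as a term and in the second file series alone. After CCl4 none was called by edgeR, while 10 had an unadjusted p under 0.05 with a higher and 4 with a lower level in knockout mice, and DESeq2 called 2 higher and limma voom 1. With only the 2 groups compared in the fit, 3 were called lower after CCl4, and without control mouse 16, 2 were called higher. Cib1, the sole other CIB gene that passed the filter, had 38.8 ± 8.66 CPM in knockout mice and 21 ± 6.49 CPM in controls without CCl4 (log2 fold change 0.61, SE 0.22, adjusted p = 0.0885). Of 10 integrin subunits, the partners of CIB proteins, Itga5, the fibronectin receptor subunit, was called, at 9.01 ± 3.34 CPM in knockout and 2.28 ± 1.76 CPM in control mice (log2 fold change 2.32, SE 0.632, adjusted p = 0.0301). The median over the 10 was 0.20, against 0.0071 over all genes tested.

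Mmp14, the other membrane-type metalloproteinase tested, rose in knockout hepatocytes without CCl4 to 83.2 ± 16.8 CPM, against 37.3 ± 13.7 CPM in controls (log2 fold change 0.96, SE 0.211, adjusted p = 0.0102). Mmp2, which encodes a gelatinase that MMP14 activates, had 2.63 (SE 0.841, adjusted p = 0.0513) and the inhibitor Timp1 1.17 (adjusted p = 0.466). Of the 9 oxysterol-binding proteins and partners other than Osbpl3, 1 was called: Rras, which encodes R-Ras, had 49.0 ± 21.7 CPM in knockout mice and 20.3 ± 3.92 CPM in controls (log2 fold change 0.99, SE 0.23, adjusted p = 0.0135). Osbpl8, Vapb and Osbpl11 had log2 fold changes of -0.37, -0.37 and -0.26, all with adjusted p-values of at least 0.257. No oxysterol-binding gene of the list other than Osbpl3 was called.

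Of 11 plastin and microvillus genes other than Pls1, the actin cross-linker Actn4 (0.79, SE 0.228, adjusted p = 0.038) and the leukocyte plastin Lcp1 (0.65, SE 0.198, adjusted p = 0.0466) were called higher without CCl4. Lcp1 is abundant in macrophages, where it averaged 834 ± 195 CPM in knockout and 649 ± 118 CPM in control mice without CCl4. The part of macrophage RNA in its hepatocyte level was not tested. The third plastin, Pls3, had 57.1 ± 12.7 CPM in knockout and 56.9 ± 7.88 CPM in control hepatocytes (adjusted p = 0.398). None of 10 THO and export genes was called; their median log2 fold change was 0.0077, and 1 of them, Alyref, had an unadjusted p under 0.05 (1.47, SE 0.683, adjusted p = 0.174). Thoc2, the relative of BC005561, had log2 fold changes of 0.16 without CCl4 (SE 0.142) and -0.07 after it (SE 0.175), with adjusted p-values of 0.521 and 0.895. Of 13 bile acid response genes 1 was called: Slc51b, a subunit of the bile acid exporter of the hepatocyte's blood side, had 22.9 ± 11.4 CPM in knockout and 4.96 ± 2.27 CPM in control mice without CCl4 (log2 fold change 2.1, SE 0.394, adjusted p = 0.0041). After CCl4 it had 1.94 (SE 0.464, adjusted p = 0.104).

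The genes whose hepatocyte profile lay nearest to each member were ranked by the root mean square distance between standardized log2 profiles over the 18 libraries, where the median gene lay at 1.36 to 1.37. Nearest to Cib3 were Ly6e (0.425), the pseudogene Gpx4-ps2 (0.44), H2-Q1 (0.482), BC005561 (0.488) and Rnd2 (0.5). BC005561 and Osbpl3 were each other's nearest gene (0.438), followed for BC005561 by the bile acid transporter gene Slc10a2 (0.476) and Cib3, and for Osbpl3 by Ccser2 (0.475) and Micu2 (0.492). Pls1 lay nearest to Krt8 (0.437), Pdgfa (0.448) and Anxa5 (0.452). Mmp15 lay nearest to Cdk5rap3 (0.536), 4933434E20Rik (0.546) and Ocln (0.564), and its distances to the rest of the 5 ran from 0.571 (Pls1) to 0.819 (BC005561). All of these distances share the libraries that chose the genes.

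BC005561 has a position of its own on chromosome 5. It starts 73.2 kb after the start of Spp1 (104435118 to 104441050), the osteopontin gene whose promoter drives the recombinase, and 2.5 kb past the end of Pkd2 (104459450 to 104505819), a polycystin gene. RefSeq has 1 longer gene here, Thoc2l (104508350 to 104554207), which covers BC005561 and the neighbouring long noncoding RNA D930016D06Rik. The window of 500 kb to each side was examined after the values had been seen, and 7 of its 27 genes, BC005561 included, were tested in hepatocytes. Without CCl4 Pkd2 was called higher in knockout hepatocytes, at 24.0, 8.39, 7.61, 17.2 and 8.71 CPM in mice 4, 5, 10, 20 and 21, against 0.531 to 6.71 CPM in controls (log2 fold change 2.25, SE 0.525, adjusted p = 0.0138). Spp1 itself had 52.4 ± 62.9 CPM in knockout and 15.0 ± 8.43 CPM in control mice (1.72, SE 0.639, adjusted p = 0.106), with 164 CPM in mouse 20. Control macrophages without CCl4 had more Spp1 than control hepatocytes, at 91.6 ± 40.8 CPM. Knockout macrophages without CCl4 had 63.7 ± 41.3 CPM. There mice 4 and 20 had less Spp1 in macrophages than in hepatocytes, and mice 5 and 21 had more. Whether the recombinase acted in macrophages was not tested. D930016D06Rik had 0.37 (SE 0.353, adjusted p = 0.545). After CCl4 Pkd2 had 0.74 (SE 0.587, adjusted p = 0.602) and no neighbour was called. In macrophages without CCl4 Pkd2 averaged 30.4 ± 21.3 CPM in knockout and 9.31 ± 5.81 CPM in control mice (1.47, SE 0.629, adjusted p = 0.365). The part of macrophage RNA in the hepatocyte level of Pkd2 was not tested. Only the knockout mice carried the recombinase, so its presence and the deletion cannot be told apart for any of these genes.

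**Figure D3:**
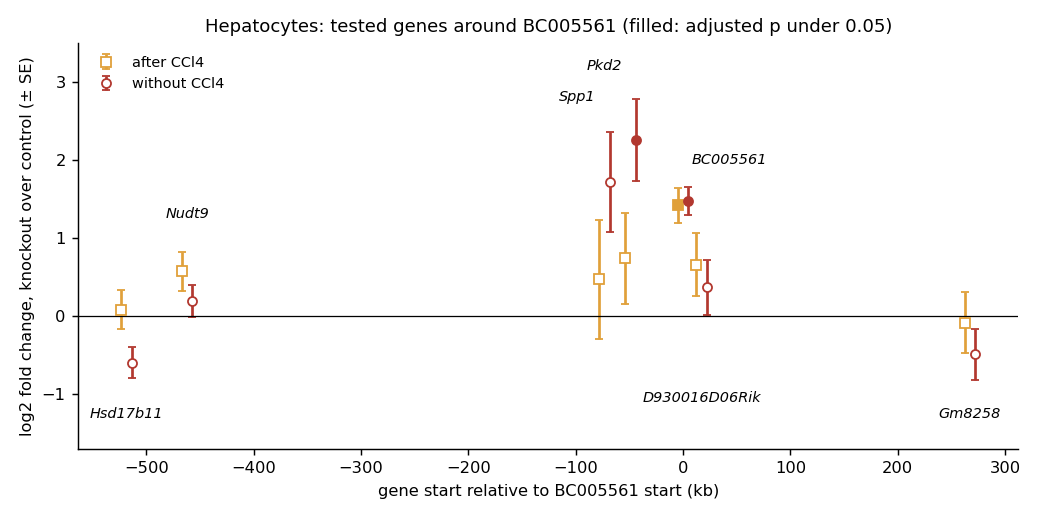
Log2 fold change (± SE) of knockout over control in hepatocytes for BC005561 and the other tested genes within 500 kb, after and without CCl4, against the distance of each gene's start from the BC005561 start in kb; filled symbols had an adjusted p under 0.05. BC005561 is filled in both comparisons and Pkd2 without CCl4, while Spp1 lies at 1.72 without CCl4 with a wide error.

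In macrophages, whose libraries had no part in the choice, Cib3 was called higher in knockout mice without CCl4. It passed the filter on low counts through its knockout libraries alone, so a gene this low in control mice had to be higher in knockout mice to be tested. Without CCl4 it had 24.0, 28.0, 6.51 and 11.2 CPM in knockout mice 4, 5, 20 and 21, against 0, 0.636, 0.39 and 0 CPM in control mice 6, 7, 8 and 9. The groups did not overlap, as for 7.43% of genes. Pooled counts were 114 in knockout and 3 in control mice, a ratio of 59.0 (95% interval 19.7 to 290). The log2 fold change was 5.40 (SE 0.886, adjusted p = 0.00496, edgeR), in a comparison that called 0.0555% of 10815 genes higher. The call was lost without mouse 4 (adjusted p = 0.0525), and with limma voom (0.0941), with the earlier quasi-likelihood method (0.0509) and in the second file series alone (0.0759).

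After CCl4 macrophage Cib3 had 5.28, 11.5, 5.03 and 0.462 CPM in knockout mice 13, 14, 17 and 18, against 1.32, 0, 0 and 0 CPM in control mice 11, 12, 15 and 16. All 4 control counts came from mouse 11, whose description calls it a knockout. The groups overlapped through mouse 18, and the difference of 2.97 on the log2 scale (SE 1.05, adjusted p = 0.476) missed the threshold. The interaction test of the 2 knockout effects gave -2.43 (SE 1.81, adjusted p = 0.618), in a comparison that called 0.194% of genes. Averaged over both treatments, a comparison added after the data had been seen, Cib3 had 4.19 (SE 0.699, adjusted p = 0.0324) and was the single gene called (0.00925% of genes). It was called in 5 of the 16 fits that left out 1 library, with adjusted p-values from 0.00393 to 0.291.

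BC005561 was expressed in every macrophage library, and its knockout difference of 1.10 to 1.51 on the log2 scale missed the threshold. Without CCl4 it had 176, 183, 77.3 and 171 CPM in knockout mice 4, 5, 20 and 21, against 40.8, 63.6, 65.7 and 79.2 CPM in control mice 6, 7, 8 and 9, so that only mouse 20 fell among the controls. After CCl4 it had 181, 196, 107 and 68.8 CPM in knockout mice 13, 14, 17 and 18, against 49.3, 47.4, 47.6 and 37.5 CPM in control mice 11, 12, 15 and 16. After CCl4 every knockout library was above every control library, as for 2.01% of genes. The log2 fold change was 1.10 (SE 0.311, adjusted p = 0.145) without CCl4, 1.51 (SE 0.32, adjusted p = 0.116) after it and 1.30 (SE 0.223, adjusted p = 0.0762) over both, where it ranked second of 10815 genes by p. Without the libraries of mice 13 and 14, chosen after the data had been seen, it was 0.85 after CCl4 (adjusted p = 0.668) and 0.98 over both treatments, and neither passed the threshold. With DESeq2 the difference was called after CCl4 (adjusted p = 0.00796) and over both treatments (0.000567).

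Mmp15 in macrophages had 2.76, 6.76, 2.44 and 2.81 CPM in knockout mice 4, 5, 20 and 21 without CCl4, against 1.75, 7.63, 3.51 and 1.6 CPM in control mice 6, 7, 8 and 9 (log2 fold change -0.27, SE 0.724, adjusted p = 0.921). After CCl4 it had 14.8, 20.5, 3.35 and 8.77 CPM in knockout mice 13, 14, 17 and 18, against 2.32, 5.52, 0 and 0.914 CPM in control mice 11, 12, 15 and 16 (2.60, SE 0.725, adjusted p = 0.282). The groups overlapped in both settings, and the interaction was 2.86 (SE 1.03, adjusted p = 0.251). Osbpl3 and Pls1 were left out by the filter on low counts, so they were compared by two-sided exact permutation tests of log2(CPM + 1), in which 4 mice against 4 cannot give a p below 0.0286. Osbpl3 had 1.58, 2.90, 4.88 and 10.5 CPM in knockout mice 4, 5, 20 and 21 without CCl4, against 0, 0, 1.36 and 0 CPM in control mice 6, 7, 8 and 9, a difference of 2.04 on that scale with the smallest possible exact p of 0.0286. Every knockout library was above every control library there, as for 7.43% of the genes that passed the filter, which Osbpl3 did not. After CCl4 Osbpl3 had 23.2, 23.8, 1.68 and 0.923 CPM in knockout mice 13, 14, 17 and 18, against 7.28, 2.21, 2.48 and 4.57 CPM in control mice 11, 12, 15 and 16, a difference of 0.65 (exact p = 0.543). Pls1 ranged from 2.36 to 7.32 CPM in knockout and from 0 to 8.90 CPM in control mice without CCl4, and from 0 to 14.8 CPM in knockout and from 0 to 2.21 CPM in control mice after it. Its difference was 1.11 without CCl4 (exact p = 0.229) and 1.09 after it (exact p = 0.343).

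CCl4 was not seen to move the 3 tested genes in macrophages, where 0.878% of genes were called in knockout and 13.2% in control mice. In knockout mice Cib3 averaged 5.56 ± 4.53 CPM after CCl4 and 17.4 ± 10.2 CPM without it, a log2 fold change of -1.92 with an adjusted p of 0.19. Mmp15 averaged 11.9 ± 7.42 CPM after CCl4 and 3.69 ± 2.05 CPM without it in knockout mice (1.69, adjusted p = 0.301). BC005561 had -0.27 (adjusted p = 0.805) in knockout and -0.67 (adjusted p = 0.17) in control mice. Osbpl3, which the filter left out, was higher after CCl4 in control macrophages, at 4.13 ± 2.35 CPM after CCl4 and 0.341 ± 0.682 CPM without it, with every library after CCl4 above every library without it, as for 15.3% of genes. The difference was 1.94 on the log2(CPM + 1) scale, with the smallest possible exact permutation p of 0.0286, and the highest value after CCl4 was that of mouse 11, the library of conflicting labels. In knockout macrophages Osbpl3 averaged 12.4 ± 12.8 CPM after CCl4 and 4.97 ± 3.95 CPM without it (difference 0.55, exact p = 0.629). Pls1 averaged 5.56 ± 6.79 CPM after CCl4 and 4.27 ± 2.14 CPM without it in knockout mice (-0.36, exact p = 0.686), and 1.01 ± 0.968 CPM after CCl4 and 2.57 ± 4.24 CPM without it in control mice (-0.33, exact p = 0.771). The 8 exact p-values of Osbpl3 and Pls1 in macrophages were not adjusted for one another.

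**Figure D4:**
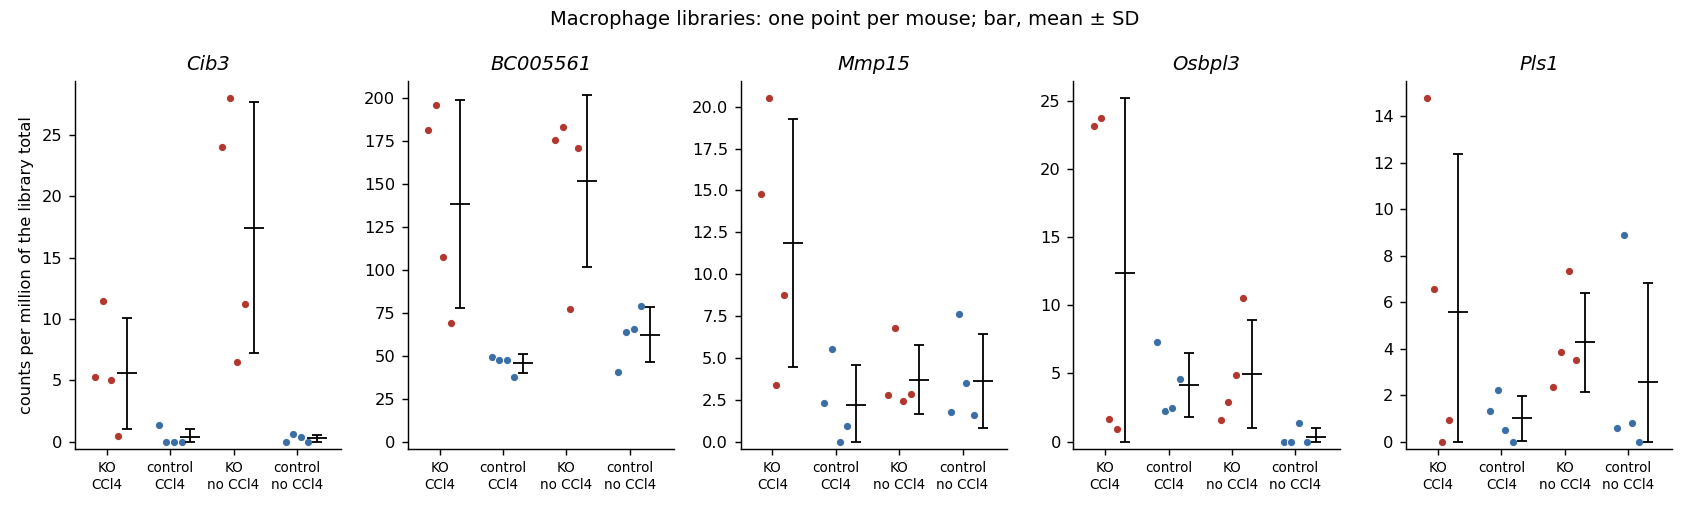
Levels of the 5 genes in macrophages, in CPM on linear axes, with 1 point per mouse and the group mean ± SD (cut at 0), for knockout (KO) and control mice after and without CCl4. Knockout and control means are closest for Mmp15 without CCl4 (3.69 against 3.62 CPM), where the fitted log2 fold change was -0.27. Knockout and control points overlap for most genes and treatments. The 2 highest knockout points after CCl4 are mice 13 and 14 in all 5 panels.

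Hepatocyte transcripts were present in every macrophage library and moved with some of these values. After CCl4 the summed level of 10 hepatocyte markers was 41362 and 37350 CPM in macrophages of knockout mice 13 and 14, against 4100 and 3939 CPM in those of knockout mice 17 and 18. Mice 13 and 14 also had the 2 highest levels of all 5 genes in that group, and their summed stellate markers were 5277 and 5639 CPM, against 1746 and 728 CPM in mice 17 and 18. Without those 2 libraries, an alternative added after the data had been seen, the knockout effect on Cib3 over both treatments was 3.38 on the log2 scale (adjusted p = 0.301). Without CCl4 the hepatocyte markers in macrophages summed to 5148 to 17447 CPM in knockout and 17306 to 19199 CPM in control mice, so the groups overlapped and the knockout range reached lower. In control mice after CCl4 they summed to 676 to 19938 CPM.

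Within a mouse, macrophage Cib3 lay near the share of hepatocyte markers without CCl4 and departed from it in both directions after CCl4. Without CCl4, macrophage Cib3 was 10.9%, 17.5%, 6.37% and 8.77% of the hepatocyte level of the same mouse in knockout mice 4, 5, 20 and 21, where hepatocyte markers stood at 10.7%, 14.6%, 4.34% and 6.26%. After CCl4 it was 23.0%, 40.4%, 15.1% and 2.02% in knockout mice 13, 14, 17 and 18, where the markers stood at 37.8%, 30.3%, 3.74% and 4.00%. The value of mouse 17 rests on 3 macrophage counts and that of mouse 18 on 1. BC005561 was far above the marker share, at 45.2% to 177% in the same 8 mice. In the knockout mice without CCl4, Mmp15 stood at 10.9% to 20.1%, Pls1 at 11.1% to 24.7% and Osbpl3 at 21.4% to 95.1%. A level near the marker share was thus not particular to Cib3. In the 4 control mice without CCl4 the hepatocyte markers stood at 14.8% to 23.0%, and macrophage Cib3 was at most 0.636 CPM. The part of hepatocyte RNA in macrophage Cib3 was not tested.

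**Figure D5:**
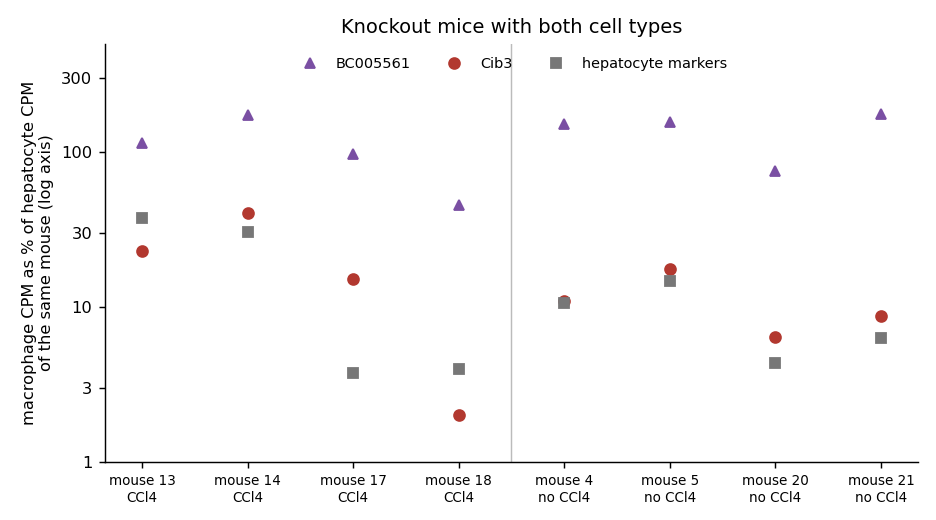
Macrophage level as a percentage of the hepatocyte level in the same mouse (log axis) for BC005561, Cib3 and the sum of 10 hepatocyte markers in 8 knockout mice, after CCl4 on the left and without it on the right. Cib3 runs close to the hepatocyte markers in mice without CCl4, and BC005561 lies at 45.2% to 177% in all 8.

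Macrophages were set against hepatocytes in one fit of the mice that gave both cell types. In knockout mice the hepatocyte libraries include those whose high values chose the genes, so a lower macrophage level follows in part from the choice, and the values are a description. Without CCl4 the log2 fold change of macrophages over hepatocytes in knockout mice was -3.67 for Cib3 (SE 0.59), -3.36 for Mmp15 (SE 0.553), -3.42 for Pls1 (SE 0.7) and -1.82 for Osbpl3 (SE 0.73), where 23.4% of 11844 genes were called lower and the median of all genes was 0.22. BC005561 had -0.10 with a 95% interval from -0.63 to 0.44. In control mice without CCl4, Mmp15 was lower in macrophages (-2.15, SE 0.533, adjusted p = 0.00105, with 27.1% of genes called lower), and the other 4 did not pass the test. With the mouse as a replicate block Mmp15 was again the one gene of the 5 called in control mice.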

How the data were processed

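RNA of sorted hepatocytes (18 libraries) and F4/80+ CD45+ macrophages (16 libraries) was sequenced from transcript ends with single 50 bp reads (QuantSeq 3′ forward), 1 library per mouse and cell type, per the labels' protocols. The authors deposited whole-number read counts per gene symbol for each cell type. Per the submitters' processing notes the tools were Trimmomatic 0.39 and HISAT2 2.1.0 and the genome build was GRCm38 (mm10). Which tool counted the reads, with what annotation and strand setting, is stated neither in the labels nor in those notes. No normalization had been applied to the counts. Replicate libraries differed by 5.16 to 42.5 chi-square units per degree of freedom, so none was a second deposit of another.

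Genes were filtered with edgeR 4.0.16 (filterByExpr), scaled by TMM and fitted in R 4.3.3 with the quasi-likelihood method (glmQLFit with legacy set to FALSE, robust) in 1 fit of 4 groups per cell type. Benjamini-Hochberg adjusted p-values under 0.05 over all genes tested were called. The cell-type comparison used genes in both tables and the 15 mice with both cell types. Alternatives used limma 3.58.1, DESeq2 1.42.0, other scalings and filters, the file series, and fits without single libraries. The fit was tested on simulated data. The members, the 7 gene lists and the 7 marker lists were chosen with earlier results of these data known. Named genes are the 5 members, up to 4 genes per list of lowest p in a hepatocyte genotype comparison, the nearest genes by profile (5 for Cib3, 3 for each other member, pseudocount 1) and the genes next to the choice; others were named after their values were seen. Intervals of ratios and floors of 3 counts cover counting error only.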

Additional observations from a re-analysis of the deposited data

Results flagged for a closer look

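Each gene was examined in each group of 4 to 6 libraries, and in 8 of these 35 sets 1 mouse lay far from the others. The nominal rate is about 5%, but the sets share libraries and some values rest on few counts. No excess over chance is therefore read from the 8. In hepatocytes of control mice without CCl4, Cib3 was 4.04 CPM in mouse 6 (4 counts), against 0 to 1.06 CPM in the other 5. In the same group BC005561 was 57.5 CPM in mouse 19, against 26.8 to 36.3 CPM in the others. In macrophages of knockout mice without CCl4, BC005561 was 77.3 CPM in mouse 20, against 171 to 183 CPM in the other 3, and Mmp15 was 6.76 CPM in mouse 5, against 2.44 to 2.81 CPM. In macrophages of control mice without CCl4, Osbpl3 was 1.36 CPM in mouse 8 (7 counts) and 0 in the others, and Pls1 was 8.90 CPM in mouse 7, against 0 to 0.78 CPM. In macrophages of control mice after CCl4, Cib3 was 1.32 CPM in mouse 11 (4 counts), the library with the conflicting label, and 0 in the others, and BC005561 was 37.5 CPM in mouse 16, against 47.4 to 49.3 CPM.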

How the results depend on the processing

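Of the 209 alternative values of the 5 genes in the 2 choosing comparisons, 30 missed the threshold, and their direction was fixed by the choice. Without CCl4, 3 of 5 were called in the second file series alone, and 4 to 5 without single libraries (4 without knockout mouse 5). After CCl4, 1 was called with the file series as a term, 0 with the library of conflicting labels moved to knockout or in the second file series alone, 2 without that library, 3 after thinning, and 2 to 5 without single libraries. The Cib3 call of CCl4 in control mice (1 of 5) fell to 0 with that library moved or left out, with limma voom, with only the groups compared, in the second series alone and after thinning, and was 0 to 1 without single libraries. Macrophage calls without CCl4 (1) became 0 with legacy quasi-likelihood, voom, only the groups compared, the second series alone or thinning, 2 without a filter, and 0 to 1 without single libraries. After CCl4 (0) they became 1 with DESeq2 and 2 without a filter. Over both treatments (1) they became 2 with DESeq2, 3 without a filter, 0 with the file series, legacy, voom, the second series, thinning or without mice 13 and 14, and 0 to 2 without single libraries. CCl4 in knockout macrophages gave 1 without a filter. Macrophages over hepatocytes gave 3 to 4 calls in knockout and 1 to 2 in control mice without single libraries. The cause of these changes was not tested.

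Signs turned only for values that were not called. In hepatocytes, BC005561 with CCl4 in control mice was -0.01 and became 0.058 (DESeq2), 0.026 (voom), 0.0087 (no filter), 0.034 (only the groups compared) and 0.041 (RLE), with -0.15 to 0.16 without single libraries. Osbpl3 there was 0.90 and became -0.092 with the conflicting library moved, -0.088 without it, -0.50 in the second series and -0.71 after thinning, with -0.088 to 1.28 without single libraries. With CCl4 in knockout mice, moving that library gave -0.12 for Mmp15 and -0.32 for Pls1, thinning gave -0.0012 for Pls1, and leaving out single libraries gave -0.16 to 0.045 for BC005561 and -0.13 to 0.36 for Pls1. The interaction of BC005561 became 0.33 (second series) and 0.18 (thinned), with -0.21 to 0.084 without single libraries. That of Osbpl3 became 0.11 (moved), 0.86 (second series), 1.30 (thinned) and 0.43 (left out), with -0.94 to 0.43 without single libraries. In macrophages Cib3 with CCl4 in control mice became -2.52 (moved), -0.035 (voom), -1.94 (second series) and -2.45 (left out), with -2.45 to 0.90 without single libraries. Its interaction became 0.21 (moved), 0.021 (second series) and 0.53 (left out), with -3.33 to 0.53 without single libraries, and that of BC005561 -0.26 without mice 13 and 14. Mmp15 by genotype without CCl4 ran from -0.64 to 0.25, and BC005561 in knockout macrophages over hepatocytes from -0.23 to 0.13, without single libraries.

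Over all genes, calls without CCl4 in hepatocytes ranged from 50 to 1035 around 762. After CCl4 the 17 calls became 4 to 130 without single libraries (130 without control mouse 16) and 0 to 52 under the other settings. The 21 interaction calls became 0 to 93 and 0 to 113. With the mouse as a replicate block, Cib3 in macrophages over hepatocytes had -3.84 in knockout mice and the block changed no call of the 5; the pairing comes from the mouse number in the titles. No paired analysis was possible within a cell type because each mouse number occurs in 1 group. In the shallowest macrophage library 3 counts correspond to 5.03 CPM.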

Other observations

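In hepatocytes the share of the listed genes (relatives and partners of the 5, and bile acid response genes) called higher with CCl4 was near that of all genes. The share called lower was near it in control mice and above it in knockout mice. Of the 58 tested, 3 (5.17%) were called higher and 8 lower with CCl4 in knockout mice, against 7.02% and 6.84% of all genes. In control mice 9 (15.5%) were called higher and 9 lower, against 13.7% each way. Bile acid response genes, 13 of the 58, made up 4 of those called lower in each genotype. Itga6, a laminin receptor subunit, rose in both genotypes (log2 fold change 1.70, SE 0.404, adjusted p = 0.00743 in knockout mice and 2.01, SE 0.381, adjusted p = 0.000559 in control mice, edgeR). Of the oxysterol-binding family, Osbpl1a and Osbpl9 fell in both (-0.80 and -0.54 in knockout mice, -0.88 and -0.77 in control mice), while Osbpl3 was not called in either. Thoc6 rose in both (1.27 and 1.06). Cyp7a1, the rate-limiting enzyme of bile acid synthesis, fell by 3.84 on the log2 scale in knockout mice (SE 0.852, adjusted p = 0.0074) and by 2.48 in control mice (SE 0.832, adjusted p = 0.0375), and the bile salt export pump gene Abcb11 fell by 0.76 (adjusted p = 0.0371) and by 1.62 (adjusted p = 0.000107). Of the 58, none was called by the interaction test, and 9 had an unadjusted p under 0.05. The knockout and control effects were not shown to differ.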
